A study of Mus musculus with 6 samples.

Results

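The miR-7 family was measured in extracellular vesicles, the membrane-bound particles that cells release, taken from mouse brain. The family comprised 5 of the 775 miRNA names detected: the 5p arms miR-7a-5p and miR-7b-5p, and the 3p arms miR-7a-1-3p, miR-7a-2-3p and miR-7b-3p. Members were all names that start with miR-7a or miR-7b. The family was selected on its measured abundance over all 6 libraries, as the largest family outside let-7, so its level and rank are given as a description. The contrast between groups did not enter that choice. The libraries were 3 from vesicles of mice that had been through status epilepticus (SE), a prolonged seizure, and 3 from vesicles of control mice (CON). The time point named in the series title is 24 hr. Strain, age, sex, the agent used to cause seizures and the number of brains per library are not given in the sources used here.

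miR-7 is among the most conserved animal miRNAs and is known for its high level in neurons and in endocrine cells, among them those of the hypothalamus, the pituitary and the pancreatic islet. A miRNA is cut from a hairpin precursor as 2 arms. The arm that is loaded into Argonaute guides it to messenger RNAs, largely through its seed (bases 2 to 8), and the partner arm, or passenger, is mostly degraded. In mammalian brain, miR-7 is bound by the circular RNA Cdr1as, which carries many sites for it, and is degraded upon binding the long non-coding RNA Cyrano. miR-671-5p directs cleavage of Cdr1as. Known targets of miR-7 include the transcripts of alpha-synuclein and of the EGF receptor.

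The mature sequences are shown because the split of the family between its genes rests on a few bases. RefSeq (GRCm38.p6) lists all 5 members, and the seed of each is in capitals.
miR-7a-5p: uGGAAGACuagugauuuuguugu
miR-7b-5p: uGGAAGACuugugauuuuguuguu
miR-7a-1-3p: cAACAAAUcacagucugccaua
miR-7a-2-3p: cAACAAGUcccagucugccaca
miR-7b-3p: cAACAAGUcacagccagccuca

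The 5p arms shared the seed GGAAGAC, which no other mature mouse miRNA in the RefSeq table carried. Over the 23 bases compared they differed at 1 position, A10U, counted from the 5′ end with the base of miR-7a-5p first, and miR-7b-5p is listed with 24 bases. The 3p arms fell into 2 seed groups: miR-7a-2-3p and miR-7b-3p shared AACAAGU, and miR-7a-1-3p had AACAAAU. miR-7a-1-3p and miR-7a-2-3p differed at 3 of 22 positions (A7G, A10C and U21C, with the base of miR-7a-1-3p first). The sources used here do not say how reads with a mismatch were counted, so the division of reads between miR-7a-5p and miR-7b-5p is uncertain to that extent.

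3 hairpins give rise to these arms, shown here with both mature arms in capitals. They explain why miR-7a-5p reads cannot be assigned to a gene while the 3p arms can: the 5p arm is identical in Mir7-1 and Mir7-2.
Mir7-1: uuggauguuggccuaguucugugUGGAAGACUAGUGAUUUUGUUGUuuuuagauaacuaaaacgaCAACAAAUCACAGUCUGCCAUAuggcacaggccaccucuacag
Mir7-2: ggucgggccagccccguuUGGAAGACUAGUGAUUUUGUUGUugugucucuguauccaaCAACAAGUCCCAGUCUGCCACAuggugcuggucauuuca
Mir7b: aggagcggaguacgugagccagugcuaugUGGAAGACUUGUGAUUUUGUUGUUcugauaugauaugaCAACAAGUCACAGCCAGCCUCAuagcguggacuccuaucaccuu

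In GRCm38.p6, Mir7-1 lies at chr13:58392779-58392886 on the minus strand. It falls within Hnrnpk, which encodes an RNA-binding protein, on the same strand and in an intron of all 12 Hnrnpk transcripts that span it in GENCODE M21. Mir7-2 lies at chr7:78888277-78888373 and Mir7b at chr17:56242988-56243098, both on the plus strand and outside other annotated genes. Their nearest protein-coding genes were Aen, at 7481 bases, and Fem1a, at 13712 bases.

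The libraries held 6016533 to 10845434 miRNA reads in the SE group and 5482407 to 6504884 in the CON group. Levels are in RPM, a miRNA's reads scaled to a fixed total in each library, and the arms, at 22 to 24 bases, are near enough in length to be set side by side without division by it. In the deposited RPM table the rows of the CON columns did not stand under their own names, and they were put back with base means from the authors' fold change table. That step changed the CON row of 4 of the 5 members, all but miR-7a-5p, and every CON value below is the one put back. The test across miRNAs was limma on log2(RPM + 1) for 290 miRNAs averaging 10 RPM or more, called at a Benjamini-Hochberg adjusted p under 0.05. It called 3 miRNAs, or 1.03% of those tested: miR-872-5p, higher in SE libraries, and miR-155-5p and miR-21a-5p, lower in SE libraries. Nothing in the labels says that replicates are separate animals, so p-values measure the spread between these libraries only.

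miR-7a-5p, the most abundant member, ranked ninth among all detected miRNAs, behind 8 let-7 names. It stood at 20345, 24660 and 18349 RPM in SE replicates 1, 2 and 3, against 19322, 19404 and 17183 RPM in CON replicates 1, 2 and 3. SE replicate 2 was the highest library and CON replicate 3 the lowest, and the groups overlapped. The SE libraries averaged 21118 ± 3226 RPM and the CON libraries 18637 ± 1259 RPM (SD, n = 3 each), 1.13-fold higher in SE. limma gave a log2 fold change of 0.17 with a standard error of 0.12, a 95% interval from -0.09 to 0.43 and an adjusted p of 0.768. Without SE replicate 2 the log2 fold change was 0.054. In bulk vesicle RNA, fewer vesicles that carry a miRNA and less of it per vesicle cannot be told apart.

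miR-7b-5p, the arm made from Mir7b alone, ranked 17th. It stood at 7496, 9333 and 6272 RPM in the SE libraries, against 8427, 7103 and 6680 RPM in the CON libraries. SE replicate 2 was again the highest of the 6 libraries, SE replicate 3 was the lowest, and the CON values lay between them. The mean was 7700 ± 1541 RPM over the SE libraries and 7403 ± 912 RPM over the CON libraries (SD, n = 3 each). limma gave a log2 fold change of 0.04 with a standard error of 0.16, a 95% interval from -0.28 to 0.37 and an adjusted p of 0.952. Its sign turned when either SE replicate 2 (-0.10) or CON replicate 3 (-0.026) was left out. Left under the deposited names, the CON rows gave a log2 fold change of -0.36, so its direction also rests on the put-back step.

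**Figure D1:**
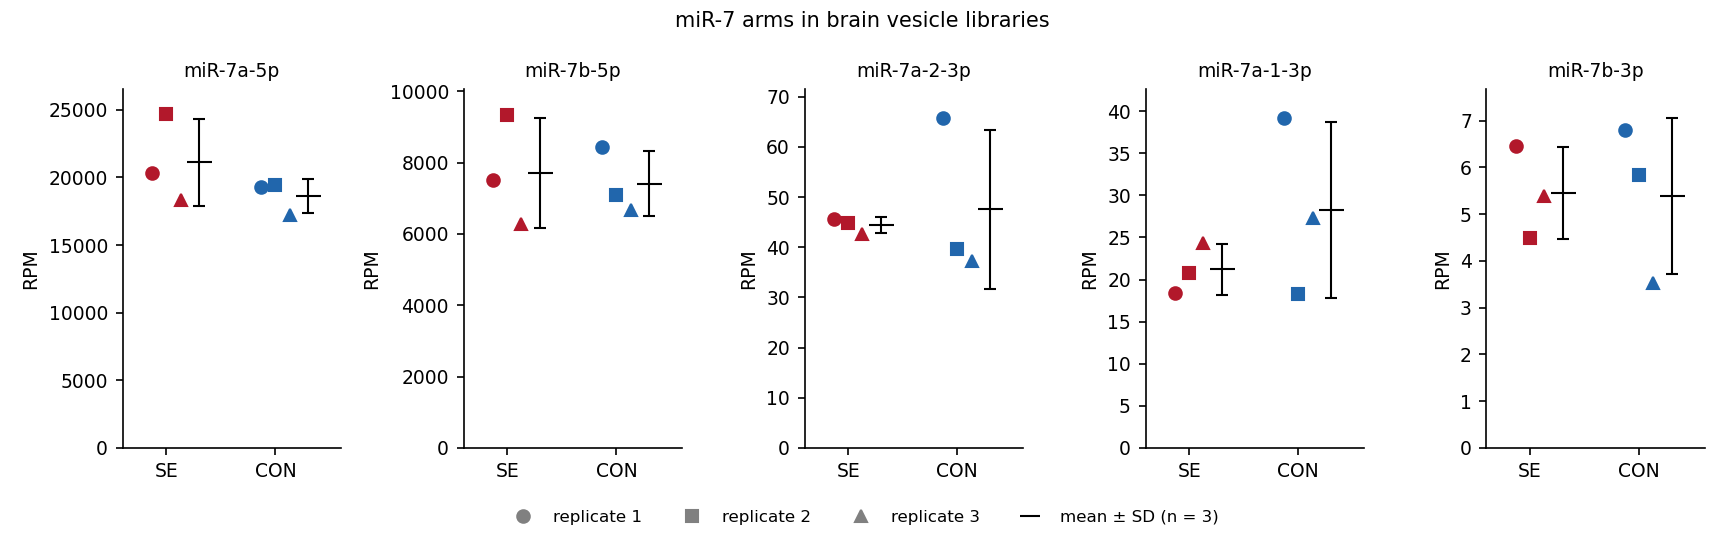
RPM of each miR-7 arm in every library, with SE left of CON, a symbol for each replicate and the mean ± SD beside it; each panel has its own axis from 0. The SE and CON points overlap for all 5 arms, SE replicate 2 is highest for both 5p arms, and CON replicate 1 is highest for all 3 passenger arms.

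The passenger arms were present at far lower levels. miR-7a-2-3p, from Mir7-2, had 45.6, 44.9 and 42.6 RPM in SE libraries, against 65.8, 39.6 and 37.2 RPM in CON libraries. The SE values lay close together, inside the wider range of the CON values. limma gave a log2 fold change of -0.05 with a standard error of 0.24, an interval from -0.56 to 0.46 and an adjusted p of 0.966. Without CON replicate 1 it was 0.20.

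miR-7a-1-3p, from Mir7-1 in the Hnrnpk intron, had 18.4, 20.8 and 24.4 RPM in SE libraries, against 39.1, 18.2 and 27.4 RPM in CON libraries. Only CON replicates 1 and 3 lay above all SE values, and CON replicate 2 was the lowest library. It had the largest difference of the 4 tested arms, with a limma log2 fold change of -0.34, a standard error of 0.27, an interval from -0.92 to 0.24 and an adjusted p of 0.824. Without CON replicate 1 it was -0.083, and without CON replicate 2 it was -0.61. With the CON rows as deposited it was 0.030.

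miR-7b-3p stood at 6.45, 4.49 and 5.38 RPM in SE libraries, against 6.79, 5.84 and 3.54 RPM in CON libraries. These values came from 27 to 70 reads per SE library and 23 to 38 per CON library, and the groups overlapped. It lay under the filter of 10 RPM, and without the filter limma gave a log2 fold change of 0.04 with a standard error of 0.33 and an adjusted p of 0.986.

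0 of the 4 members that passed the filter were called, against 1.03% of all 290 miRNAs tested. The SE and CON values overlapped for each of these 4, where 14.8% of the tested miRNAs had groups that did not overlap. Over all 290 the median log2 fold change was -0.07. It shifted upward by 0.10 with median-of-ratios scaling and by 0.12 with scaling to the reads outside let-7. Relative to that median, miR-7a-5p stood at 0.24 under RPM and at 0.25 under either of these scalings. miR-7b-5p stood at 0.12 relative to it under all 3, and miR-7a-1-3p at -0.27 under RPM and median-of-ratios scaling and -0.28 outside let-7. miR-7a-2-3p stood at 0.022 relative to it under RPM, 0.024 with median-of-ratios scaling and 0.025 outside let-7, so the change of its own sign under the last 2 (0.052 and 0.075) followed the shift of that median.

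**Figure D2:**
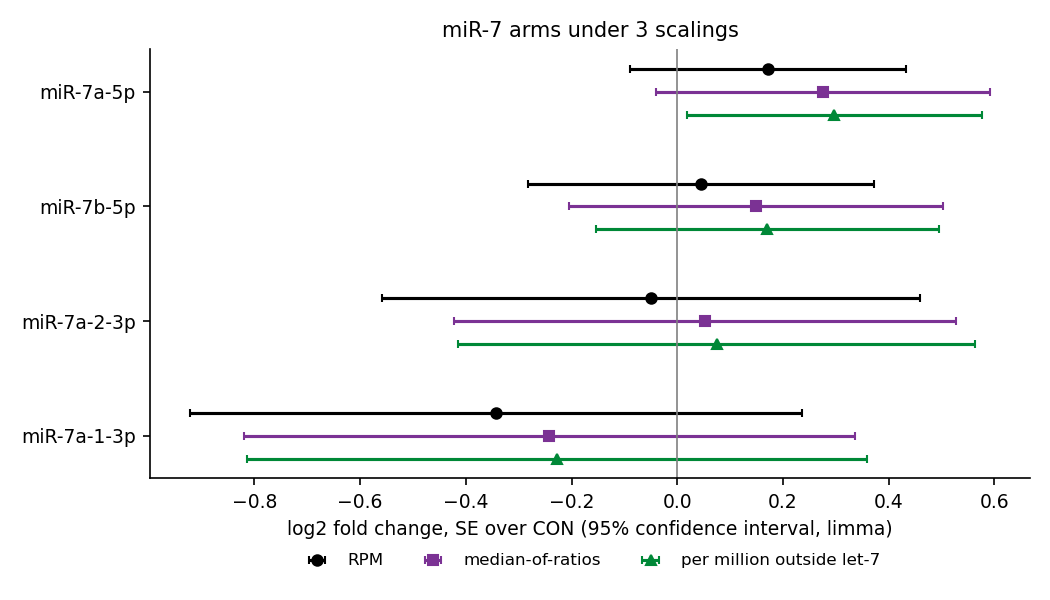
Log2 fold change of the 4 tested miR-7 arms, SE over CON, with 95% confidence intervals from limma under 3 scalings (circles RPM, squares median-of-ratios, triangles reads outside let-7). All intervals include 0 except that of miR-7a-5p outside let-7, which runs from 0.02 to 0.58, and no adjusted p passed.

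The authors' deposited table likewise calls none of the 5 members, where 1.04% of its 772 miRNAs with a p-value are called at an adjusted p under 0.05. In the authors' deposited table a positive log2 fold change stands for a higher level in CON. It lists -0.29 (standard error 0.16) for miR-7a-5p, with an unadjusted p-value of 0.0658 and an adjusted p of 0.975. The authors' deposited table gives -0.16 for miR-7b-5p, -0.02 for miR-7a-2-3p, 0.28 for miR-7a-1-3p and -0.12 for miR-7b-3p. Their adjusted p in the authors' deposited table was 0.975 or 0.990. These values are not independent of those above, since the CON rows were put back with its base means.

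Taken as a family, the 5 arms made up 2.79%, 3.41% and 2.47% of the reads in SE libraries, against 2.79%, 2.66% and 2.39% in CON libraries. SE replicate 2 stood above the other 5 libraries. The means were 2.89% ± 0.476 in SE and 2.61% ± 0.200 in CON libraries (SD, n = 3 each). An exact permutation test, two-sided, gave p = 0.4 for the difference of 0.277 percentage points; with 3 libraries in each group its smallest possible p is 0.1. Without SE replicate 2 the difference was 0.0181 points, and with the CON rows as deposited it was 0.0296 points.

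Most reads of these libraries belonged to let-7, a family of regulators of developmental timing, at 80.1% ± 1.35 in SE and 78.3% ± 0.943 in CON libraries (SD, n = 3 each). The RPM of every other miRNA depends on that share. Names that start with let-7 or miR-98, both arms included, were counted as let-7 throughout. Among the reads outside let-7, the miR-7 family took 13.1%, 17.2% and 13.3% in SE libraries, against 12.4%, 12.9% and 10.9% in CON libraries. All SE values lay above all CON values, with a gap of SE replicate 1 over CON replicate 2 that was small beside the spread within either group. The means were 14.5% ± 2.29 in SE and 12.04% ± 1.04 in CON libraries (SD, n = 3 each). The exact permutation test gave p = 0.1 for the difference of 2.47 percentage points, the smallest it can give here. Adjusted over the 5 shares and ratios whose exact permutation p is reported here, p was 0.5 for each. Without SE replicate 2 the difference was 1.15 points. With the CON rows as deposited it was 1.28 points, with p = 0.6 in the exact permutation test, so the separation of the groups also rests on the put-back step.

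**Figure D3:**
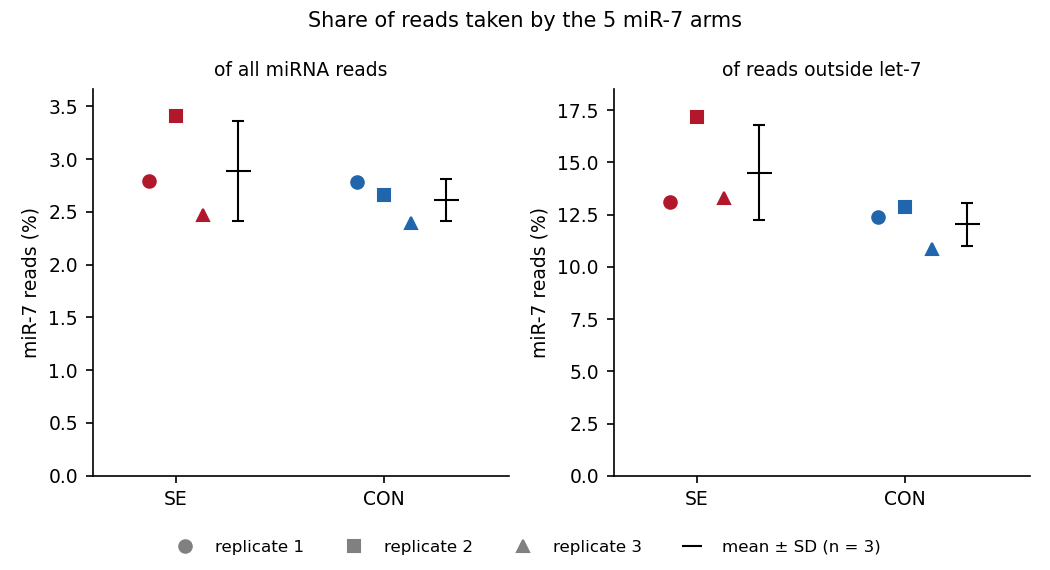
Share of reads taken by the 5 miR-7 arms together, as a percent of all miRNA reads (left) and of reads outside let-7 (right), with SE left of CON, a symbol per replicate and mean ± SD. The groups overlap on the left; on the right the SE libraries lie at 13.1% to 17.2% and the CON libraries at 10.9% to 12.9%.

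The difference outside let-7 lay mostly with miR-7a-5p, which also held most of the family's reads. On that scale the SE mean was 1.23-fold the CON mean for miR-7a-5p and 1.13-fold for miR-7b-5p. Scaled to reads outside let-7 in place of all reads, miR-7a-5p stood at 95517, 124188 and 98658 RPM in SE libraries, against 85943, 93921 and 78121 RPM in CON libraries. Every SE value was above every CON value, which held for 5.52% of the 290 miRNAs tested on that scale. limma on that scale gave a log2 fold change of 0.30 with a standard error of 0.13, an unadjusted p of 0.0381 and an adjusted p of 0.526, so it was not called. miR-7b-5p, at 35193, 47000 and 33722 in SE against 37485, 34378 and 30370 in CON libraries on the same scale, overlapped between the groups, with a limma log2 fold change of 0.17 and an adjusted p of 0.754.

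Within each library, miR-7a-5p exceeded miR-7b-5p by 2.64- to 2.93-fold in SE and by 2.29- to 2.73-fold in CON libraries. This ratio does not depend on depth or scaling. miR-7b-5p made up 26.9%, 27.5% and 25.5% of the 5p reads in SE libraries, against 30.4%, 26.8% and 28.0% in CON libraries. CON replicate 1 held the largest share of miR-7b-5p and SE replicate 3 the smallest. The log2 ratio of miR-7b-5p to miR-7a-5p averaged -1.46 ± 0.08 in SE and -1.34 ± 0.13 in CON libraries (SD, n = 3 each), with p = 0.3 in the exact permutation test. The difference of -0.13 was -0.057 without CON replicate 1, and -0.53 with the CON rows as deposited, where the exact permutation p was 0.1.

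The passenger arms tell the miR-7a hairpins apart. miR-7a-2-3p was above miR-7a-1-3p in all 6 libraries, by 1.75- to 2.48-fold in SE and 1.36- to 2.17-fold in CON libraries. miR-7a-1-3p made up 28.8%, 31.6% and 36.4% of the miR-7a 3p reads in SE libraries, against 37.3%, 31.5% and 42.4% in CON libraries. The groups overlapped, and the exact permutation test gave p = 0.3 for the difference of -4.81 percentage points. It ran from -7.58 without CON replicate 2 to -2.16 without CON replicate 3, and with the CON rows as deposited it was 4.15. The ratio of the 3p arms describes the hairpins only as far as their passenger arms were kept to the same degree, which was not tested.

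All 3 passenger arms together were 0.253%, 0.206% and 0.293% of the family's reads in SE libraries, against 0.401%, 0.240% and 0.285% in CON libraries. CON replicate 1 stood highest, and the exact permutation test gave p = 0.5 for the difference of -0.0579 percentage points. Without CON replicate 1 it was -0.0115 points, and without CON replicate 2 it was -0.0923 points. The 3p arm was 0.0717% of the reads of Mir7b and 0.354% of the reads of the miR-7a hairpins, over the means of all libraries. The comparison set was 86 other hairpins with both arms named and at least 100 RPM. It left out every name that starts with miR-7, so also unrelated hairpins such as miR-708 and miR-770, and names merged in the RPM rows. In that set the median share of the minor arm was 1.42%. Near 100 RPM, a share as low as that of Mir7b stands for too few reads to be measured. With that limit of depth, 23 of the 86 had a lower share than Mir7b. The minor arms of the 81 of these outside let-7 made up 6.43%, 6.12% and 6.47% of their reads in SE libraries, against 6.36%, 6.16% and 7.29% in CON libraries. CON replicate 3, and not CON replicate 1, was highest there.

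**Figure D4:**
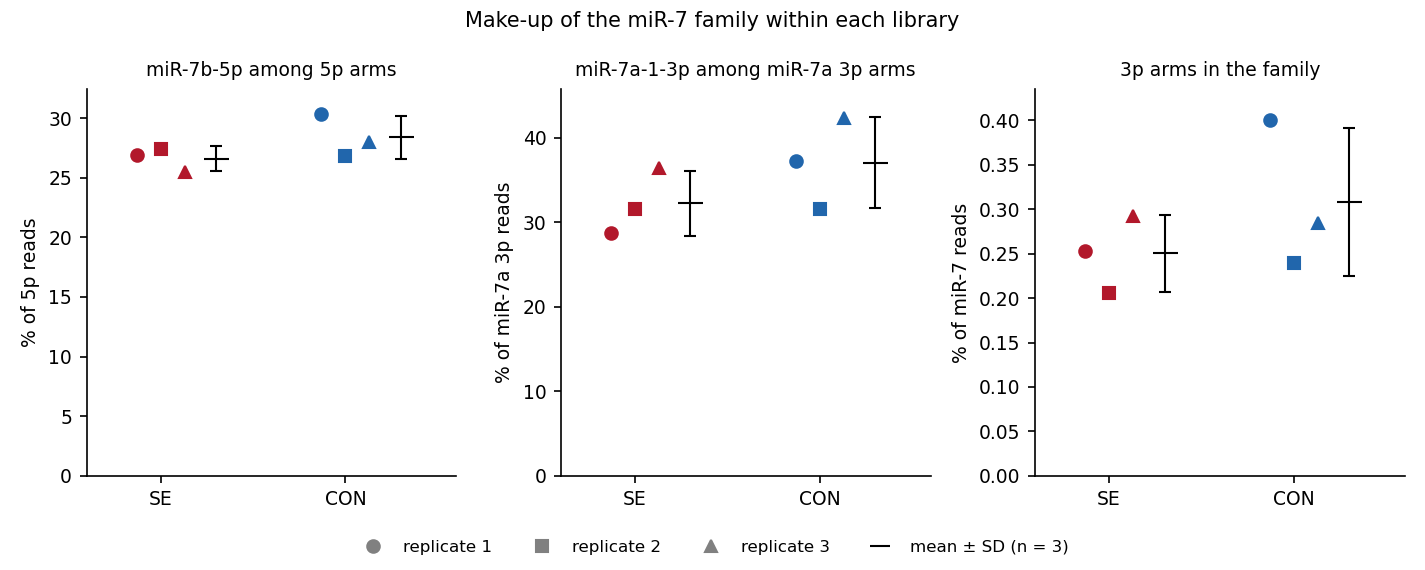
Make-up of the miR-7 family within each library, with SE left of CON, a symbol per replicate and mean ± SD: miR-7b-5p as a percent of 5p reads, miR-7a-1-3p as a percent of miR-7a 3p reads, and all 3p arms as a percent of the family's reads. CON replicate 1 is highest in the first and last panels, at 30.4% and 0.401%, and CON replicate 3 in the second, at 42.4%.

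The spread between replicates differed among the arms. miR-7a-5p rested on 106383 to 220653 reads per library, for which counting alone gives a relative error of at most 0.307%, and its coefficient of variation was 15.3% in SE and 6.76% in CON libraries. For miR-7b-5p the coefficient of variation was 20.01% in SE and 12.3% in CON libraries. The medians over the 47 miRNAs that averaged 1000 RPM or more were 10.3% in SE and 11.0% in CON libraries. The passenger arms had 3.57% to 18.1% in SE and 31.1% to 37.1% in CON libraries, with counting errors of 4.49% to 20.9% from 23 to 495 reads. Counting errors assume independent reads.

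In level, miR-7a-5p stood apart from the names just below it. The name ranked above it, let-7d-5p, exceeded it in 5 of 6 libraries, and let-7e-5p/7k and let-7i-5p did so in all 6. miR-191-5p, miR-26a-5p and miR-151-5p followed below it in all 6 libraries, at means over all libraries of 13333, 12852 and 11337 RPM against its 19877 RPM. miR-7b-5p did not separate from its neighbours in the order. miR-29a-3p and miR-16-5p lay above it in 4 of 6 libraries, miR-127-3p in 5, miR-9-5p and miR-128-3p in 3, and miR-139-5p in none.

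Grouped by shared seed, with let-7 taken by name, the miR-7 5p arms ranked second in each of the 6 libraries, behind let-7 alone. Of the 775 detected names, 660 matched a RefSeq mature sequence, and each of the rest was left as a group of its own. The miR-7 seed held 2.88% ± 0.476 of reads in SE and 2.60% ± 0.198 in CON libraries. The miR-26 seed came next, at 1.58% ± 0.249 in SE and 1.62% ± 0.178 in CON, followed by miR-191-5p, at 1.17% ± 0.0992 in SE and 1.502% ± 0.0624 in CON, and miR-151-5p, at 1.10% ± 0.220 in SE and 1.17% ± 0.0970 in CON libraries (SD, n = 3 each).

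Likeness to the summed miR-7 5p arms was measured as the root mean square distance between log2(RPM + 1) profiles over the 6 libraries, each centred on its own mean. The nearest were miR-664-5p (0.08), miR-574-5p (0.09), miR-1968-5p (0.10), miR-382-5p (0.10) and miR-30c-1-3p (0.11), where the median distance over all tested miRNAs was 0.31. SE replicate 2 stood 0.32 above the mean in the summed 5p arms, and it was above the mean by 0.13 to 0.34 in these 5. That rise follows from choosing the 5 by nearness to this same profile, and is no separate result. The passenger arms had another profile: in CON replicate 1, miR-7a-2-3p stood 0.53 and miR-7a-1-3p 0.69 above their own means, against 0.03 for the summed 5p arms.

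**Figure D5:**
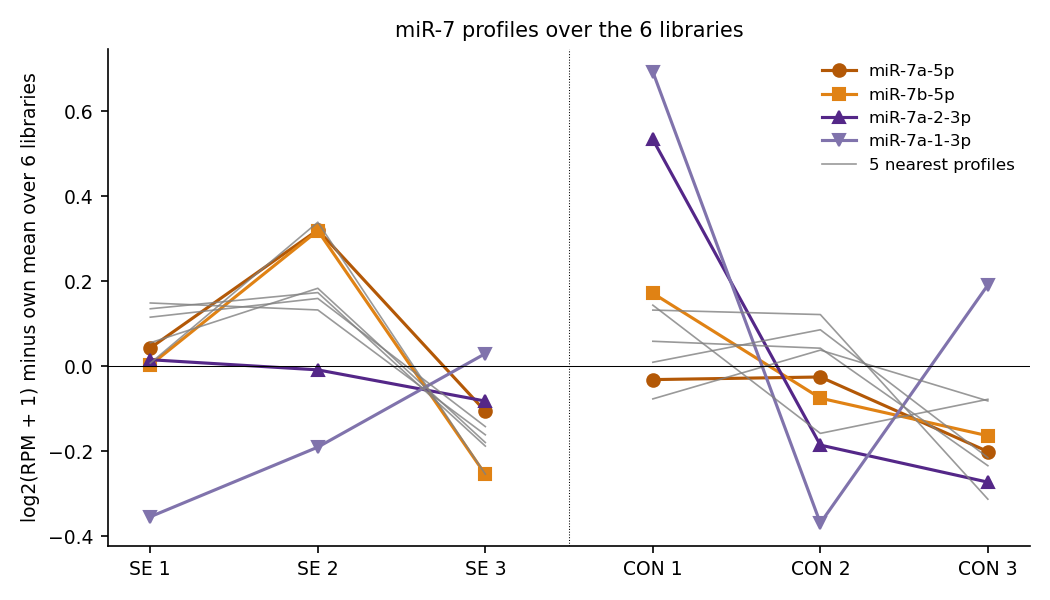
Profiles of the 4 tested miR-7 arms (coloured) and of the 5 miRNAs nearest to the summed 5p arms (grey) over the 6 libraries, as log2(RPM + 1) minus each miRNA's own mean; lines join the libraries of 1 group and mark no order. The 5p arms peak in SE replicate 2, at 0.32, and the 3p arms in CON replicate 1, at 0.53 and 0.69.

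Of the 4 miRNAs of the Cdr1as circuit, miR-7a-5p and miR-7b-5p included, 3 were tested and 0 passed, where 1.03% of all 290 tested did. miR-671-5p, which directs cleavage of Cdr1as and is shown for its role there (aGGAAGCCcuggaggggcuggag, seed in capitals), had 123, 77.1 and 51.7 RPM in SE libraries, against 45.6, 78.1 and 73.2 RPM in CON libraries. The SE values covered a wider range that enclosed all CON values but the lowest. limma gave a log2 fold change of 0.30 with a standard error of 0.29 and an adjusted p of 0.838. Its partner miR-671-3p stood at 7.62 to 9.59 RPM in SE and 6.26 to 8.94 RPM in CON libraries, under the filter.

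The other miRNAs of pituitary, hypothalamus and islet were low beside miR-7. Of the 9 names in that list, miR-7a-5p and miR-7b-5p included, 8 were detected. Of these, 4 were tested and 0 passed, where 1.03% of all 290 miRNAs tested did. miR-375-3p, the most abundant islet miRNA, had 11.0, 10.8 and 14.3 RPM in SE libraries, against 5.72, 12.6 and 13.4 RPM in CON libraries, with a limma log2 fold change of 0.24 and an adjusted p of 0.871. miR-429-3p, of the epithelial miR-200 family, had 9.497, 7.65 and 8.67 RPM in SE libraries, against 17.5, 14.4 and 12.5 RPM in CON libraries. All its SE values lay under its CON values, where 14.8% of the 290 miRNAs tested had groups that did not overlap. miR-429-3p did not pass, with a limma log2 fold change of -0.71 and an adjusted p of 0.373. miR-141-3p was at 0 in all 3 SE libraries and in CON replicate 2, and at 0.536 and 1.69 RPM in CON replicates 1 and 3. A count of 0 allows up to 0.277 to 0.499 RPM in the SE libraries and 0.547 RPM in CON replicate 2. That is the level of 3 reads and covers counting error only. The lowest listed value stands for 2 reads, so a listed 0 may also stand for fewer reads than that, with a higher limit. miR-200a-3p, miR-200b-3p and miR-200c-3p stood at 1.35 to 4.63 RPM in SE and 1.69 to 6.44 RPM in CON libraries, under the filter, and miR-375-5p was listed at 0 throughout.

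Markers of neurons were present in these vesicles of brain and summed to a level near that of the miR-7 family. The 15 rows of the neuron list, from 16 names, ran from 25039 to 30234 RPM in SE and from 27856 to 32710 RPM in CON libraries. All 15 were tested and 0 passed, where 1.03% of all 290 miRNAs tested did. The most abundant members of the neuron list were miR-9-5p, which acts in neurogenesis, with a limma log2 fold change of -0.24, miR-128-3p (-0.33), miR-138-5p (0.14) and miR-129-5p (-0.14). Their limma adjusted p ran from 0.570 to 0.871. The largest differences in the list were those of miR-212-3p (-0.72, limma adjusted p of 0.231) and miR-132-3p (-0.51, limma adjusted p of 0.393). Their SE values lay under their CON values, where 14.8% of the 290 miRNAs tested had groups that did not overlap. The median log2 fold change of the list was -0.15, beside -0.07 for all miRNAs tested.

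Lists of other cell types stood lower. The astrocyte list summed to 7598 to 8263 RPM in SE and 8876 to 13038 RPM in CON libraries, and the endothelial list to 4355 to 5240 RPM in SE and 4817 to 6715 RPM in CON. The oligodendrocyte list summed to 262 to 344 RPM in SE and 319 to 463 RPM in CON, and the microglia and leukocyte list to 97.3 to 121 RPM in SE and 184 to 216 RPM in CON libraries. The choroid plexus list stood at 257 to 561 RPM in SE and 293 to 450 RPM in CON, liver at 89.4 to 114 RPM in SE and 150 to 233 RPM in CON, muscle at 148 to 158 RPM in SE and 177 to 218 RPM in CON, and red cells at 16.8 to 32.2 RPM in SE and 19.1 to 29.5 RPM in CON libraries. Of these 8 lists, the astrocyte and the microglia and leukocyte lists had 3 tested members each, and the endothelial and oligodendrocyte lists 2 each. The choroid plexus, liver, muscle and red cell lists had 1 each. miR-204-5p, miR-1a-3p and miR-486a-5p/486b-5p made up nearly all of the choroid plexus, muscle and red cell sums. Of the red cell list, miR-144-3p was listed at 0 throughout, and miR-451a at 0 in all but CON replicate 3 (0.922 RPM). Only miR-155-5p, of the microglia and leukocyte list, passed, where 1.03% of all 290 miRNAs tested did. miR-122-5p, the only name of the liver list, had a limma log2 fold change of -0.91 and an adjusted p of 0.0504. The part of these lists in the miR-7 values was not tested.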

How the data were processed

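Small RNA of brain vesicles was sequenced in 6 libraries, 3 SE and 3 CON. RNA came from a DNase-treated column preparation and went into QIAseq miRNA libraries, per the labels' protocols. Use of molecular identifiers, aligner, counter and miRNA annotation are not given in the sources used here. The submitters' processing notes name mm9 as build and DESeq2 as a tool without its role. The members and lists were chosen with earlier results of these data known.

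The authors' deposited table of RPM holds RPM values over 1926 names. All its values were whole multiples, within 0.01 reads, of 1 read, with the lowest value of a column at 2 reads, and depths follow from that. The authors' deposited table of fold changes gives, per the file headers, a base mean of normalized counts (the signal over all libraries), log2 fold changes with standard errors, a Wald score, p-values and their adjusted form. The table was copied, not refitted. Its direction was read from the signs of 81 miRNAs with a base mean over 50 and a log2 value beyond 0.3, of which 74 had the sign of CON over SE.

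In the deposited RPM table both the SE and the CON means descend down the rows. The total of each miRNA over the CON libraries was taken as 6 times its base mean minus its normalized SE reads, with size factors fitted to the columns. It was above 0 for 687 miRNAs, and each of these 687 found its CON row at a relative tolerance of 1e-05, whereas at most 3 of the 312 with a total of at least 150 matched with the CON factors exchanged. For 90 of them several rows lay within the tolerance, but these rows held the same reads in each CON library, and 0 of the 90 were members or among the 290 miRNAs tested. Chi-square over degrees of freedom between replicates was 107 to 208, so no library repeated the reads of another within counting error. It cannot tell whether libraries share a brain or an RNA preparation.

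limma-trend (version 3.58.1 under R 4.3.3) was the main test, run on log2(RPM + 1), a scale that understates changes of low miRNAs, with a minimum mean of 10 RPM, two-sided, adjusted by Benjamini-Hochberg over 290 miRNAs. It was tested on simulated data. Shares and ratios were compared with an exact permutation test of group means over 10 arrangements. The 5 p-values reported from the main comparisons were adjusted by Benjamini-Hochberg together. Variants of these measures and the let-7 share were also run through the test, and their p-values were not adjusted. The only ones given are those with the CON rows as deposited, for the share outside let-7 and the log2 ratio of the 5p arms. Named miRNAs were the members, seed relatives, lists, nearest levels and profiles, neighbouring seed families and calls. The alternatives tried were a pseudocount of 0.5 or 5 RPM, no filter or 50 RPM, median-of-ratios scaling, reads outside let-7, the replicate block, CON rows as deposited, 5p arms only, each library left out and, chosen after seeing the data, limma-voom on the recovered reads in place of the planned count test. Tables used Python 3.11.15 with pandas 2.3.3, numpy 2.4.6 and scipy 1.17.1, and plots matplotlib 3.10.9.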

Additional observations from a re-analysis of the deposited data

How the results depend on the processing

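miR-7a-5p kept a positive log2 fold change that did not pass under all 15 alternatives, from 0.054 to 0.30, and without a library from 0.054 to 0.27. miR-7b-5p ran from -0.10 to 0.18 without a library and was -0.36 with the CON rows as deposited. miR-7a-1-3p ran from -0.61 to -0.083 without a library and was 0.030 as deposited. miR-7a-2-3p ran from -0.20 to 0.20 without a library, and was 0.052 with median-of-ratios scaling and 0.075 outside let-7, which followed the median of all miRNAs, its distance from that staying at 0.022 to 0.025. The cause of the other reversals named here was not tested. miR-7b-3p, under the filter, was fitted without a filter only. The count of called miRNAs ran from 3 to 6 without a library and was 0 with the CON rows as deposited, where 2 had an unadjusted p under 0.05. The family share differed by 0.0181 to 0.487 points and the share outside let-7 by 1.15 to 3.17 points without a library, and by 0.0296 and 1.28 points with the CON rows as deposited. The miR-7a-1-3p share of miR-7a 3p reads was not among the planned comparisons, and its alternatives were chosen after seeing the data. It differed by -7.58 to -2.16 points without a library and by 4.15 points as deposited. The log2 ratio of the 5p arms differed by -0.18 to -0.057 and the passenger share by -0.0923 to -0.0115 points without a library. With the replicate block the count of calls was 3, as without it, and no other call changed. Libraries of the same number did not deviate together (correlations of -0.42, -0.25 and 0.045), so the numbers are not taken as pairs. The lowest adjusted p of any member under any alternative was 0.274, for miR-7a-1-3p without CON replicate 2. The edgeR test planned on recovered reads was not run, since a check of data fit did not accept the RPM steps as whole reads. The lowest value of a column stands for 2 reads. limma-voom, used in its place, rests on reading the steps as whole reads. Depth limits miR-7b-3p, at 23 to 70 reads.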
